A study of Mus musculus with 16 samples.

Results

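Receptors that bind, take up or sort particles carrying apolipoprotein E (apoE) were measured as transcripts in primary mouse brain endothelial cells, and 9 of them are described here. They are *Vldlr*, *Lrp8*, *Lrp1*, *Lrp2*, *Lrp4* and *Lrp10* of the low-density lipoprotein (LDL) receptor family in the wide sense, the sorting receptor *Sorl1*, the high-density lipoprotein receptor *Scarb1*, and *Gpihbp1*, which holds lipoprotein lipase at the capillary wall. The 9 genes were taken by name from 39057 rows of the gene count table, 39056 of mouse and 1 of human. Counts were high enough to test 7 of the 9. *Lrp2* and *Sorl1* were too low.

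The cultures came from targeted replacement mice, in which a human *APOE* gene stands in place of the mouse gene and is driven by the mouse promoter, in every cell type that uses it. Both groups carried a human isoform, either *APOE3* or *APOE4*, so the comparison holds no mouse apoE control and no culture without apoE. Cortices of juvenile mice aged 21 to 28 days were dissociated with the meninges removed, endothelial cells were selected with 8 µg/ml puromycin, and RNA was taken from untreated cultures grown to confluence in heparin-supplemented medium, at passage 0. There were 16 libraries of poly-A RNA, 8 of *APOE3* and 8 of *APOE4* cells, each from the brain of a different animal, with 4 males and 4 females per genotype. The libraries held 12717847 to 18624417 counts, and the totals did not differ between genotypes beyond their spread (exact two-sided permutation test of the log2 totals, p = 0.758).

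Receptors of the LDL receptor family are single-pass membrane proteins. Their extracellular ligand-binding repeats bind apoE and other ligands, acid in the endosome releases the cargo, and short motifs in the cytoplasmic tail recruit adaptors for endocytosis or signaling. LRP1 is known in brain vessels as a clearance receptor for amyloid-beta and apoE, LRP8 and VLDLR as receptors for reelin, LRP4 as the agrin receptor and a Wnt inhibitor, and SORL1 as a sorting receptor that works with retromer. SCARB1 exchanges cholesteryl ester with high-density lipoprotein, and GPIHBP1, described mostly in peripheral rather than brain capillaries, carries lipoprotein lipase across the endothelial cell.

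The cultures carried endothelial transcripts throughout. The 15 markers of the brain endothelial list summed to between 14851 and 16213 counts per 1000000 counts of the library (CPM) in every library, led by *Pecam1* and *Cdh5*, the adhesion molecules of endothelial junctions, at means of 3635 and 3434 CPM. Of the same list, *Mfsd2a*, a lipid transporter of the blood-brain barrier, lay between 2.43 and 4.92 CPM. Pericyte and smooth muscle markers summed to between 193 and 362 CPM, mainly *Tagln* (170 CPM) and *Acta2* (82.1 CPM), and fibroblast and meningeal markers to between 10.5 and 85.5 CPM, mainly *Col1a2* (16.2 CPM) and *Col1a1* (12.9 CPM). Astrocyte markers summed to at most 43.4 CPM with *Gja1* and *Aldh1l1* highest, microglial and macrophage markers to at most 10.3 CPM with *Cd68* and *Mrc1* highest, neuronal markers to at most 15.4 CPM with *Tubb3* and *Rbfox3* highest, and choroid plexus and ependymal markers to at most 160.04 CPM, nearly all of it *Clic6*, with *Kl* next. *P2ry12*, *Itgam*, *Olig1* and *Olig2* were listed at 0 in all 16 libraries. In bulk RNA, fewer cells of a type and less RNA per cell cannot be told apart.

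Divided by exonic length, the receptors ranged from 56.3 CPM per kilobase down to 0.0102, and *Lrp10* and *Scarb1* led. *Lrp10*, an endosomal and trans-Golgi receptor, stood at 56.3 ± 2.31 CPM per kilobase (mean ± SD over the 16 libraries) and *Scarb1* at 28.6 ± 1.80. Among 12467 tested genes with a length, these levels lay at the 94.3 and 87.2 percentiles. *Gpihbp1* at 9.85 ± 3.91 and *Lrp8* at 7.78 ± 0.618 CPM per kilobase formed the middle. *Lrp4* at 1.70 ± 0.238 and *Lrp1* at 1.52 ± 0.801 came next, and *Vldlr* followed at 0.218 ± 0.0461, at the 2.69 percentile. *Lrp2* and *Sorl1* were last, at 0.0128 ± 0.00800 and 0.0102 ± 0.0123 CPM per kilobase. These lengths are unions of all annotated exons, so a gene that uses a short isoform is placed too low.

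Of the neighbours in this order, 3 pairs could not be separated in every library. *Gpihbp1* was above *Lrp8* per kilobase in 8 of 8 *APOE3* cultures but in 4 of 8 *APOE4* cultures, where the means were 7.15 ± 2.03 for *Gpihbp1* and 7.94 ± 0.595 for *Lrp8* (SD, n = 8). *Lrp4* was above *Lrp1* in 11 of 16 libraries and *Lrp2* above *Sorl1* in 11 of 16. Every other neighbouring pair kept its order in 16 of 16.

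**Figure D1:**
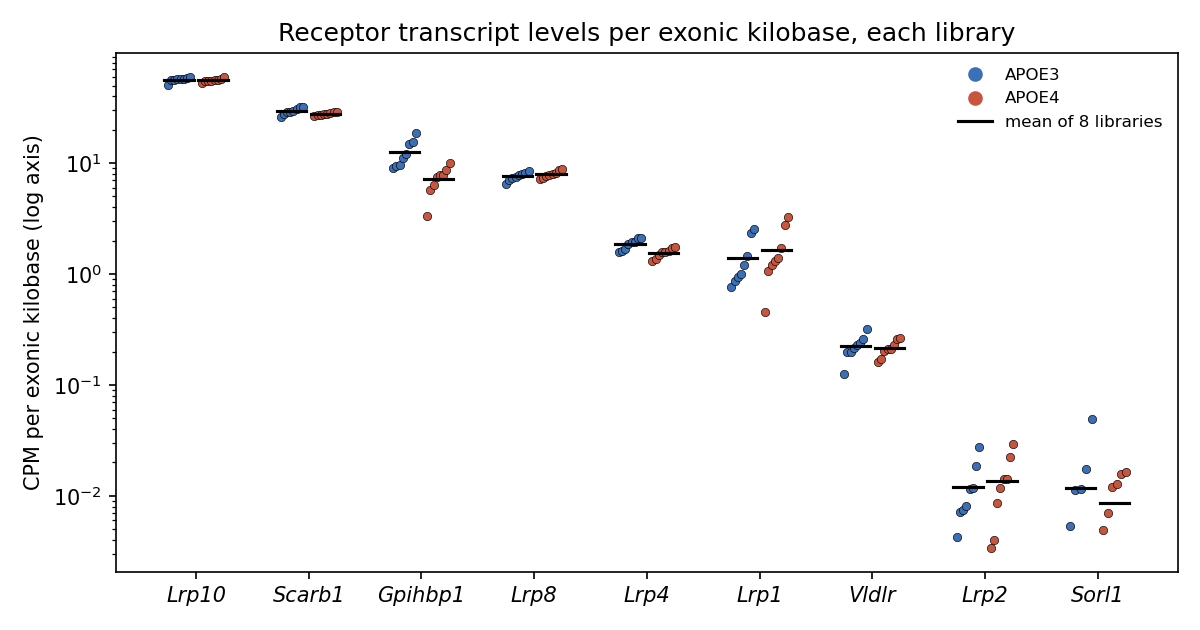
Transcript level of each of the 9 receptors in CPM per exonic kilobase (log axis), 1 point per library, *APOE3* in blue and *APOE4* in red, with bars at the means of 8 libraries. *Lrp10* and *Scarb1* stand above the rest in all libraries, the *Gpihbp1* points of the *APOE4* cultures reach down past those of *Lrp8*, and 5 libraries with no *Sorl1* count are not drawn.

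The genotype comparison asked whether the listed receptors, with the lipase-binding *Gpihbp1* among them, differed where the isoform of apoE did. Of the 7 tested receptors 2 passed, *Gpihbp1* and *Lrp4*, and both were lower in *APOE4* brain endothelial cells (adjusted p under 0.05, edgeR quasi-likelihood test with Benjamini-Hochberg adjustment over all 12481 genes tested). In that comparison 12.8% of all genes tested passed in either direction, 6.09% as lower and 6.71% as higher, so 2 of 7 is a small count against a background that is itself broad. No receptor rose. The median log2 fold change over all genes tested was -0.00022, as the TMM scaling centres it. None of the 7 separated the 2 genotypes without overlap, as 0.625% of tested genes did.

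*Gpihbp1* was the receptor that differed most. In *APOE3* cultures it ran from 23.2 to 48.0 CPM with a median of 29.6, and in *APOE4* cultures from 8.49 to 25.5 CPM with a median of 19.5. All 8 *APOE4* cultures lay below the *APOE3* median and 7 of 8 lay below the lowest *APOE3* culture. The exception was *APOE4* culture 43 at 25.5 CPM, which overlapped the 3 lowest *APOE3* cultures, and the lowest value of all belonged to *APOE4* culture 40.

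The *Gpihbp1* mean fell from 32.1 ± 8.85 to 18.3 ± 5.18 CPM (SD, n = 8), a log2 fold change of -0.81 with a standard error of 0.177 and a 95% interval of -1.19 to -0.43 (edgeR adjusted p = 0.00873). An exact permutation test of the log2 CPM over all 12870 assignments of the 16 libraries gave p = 0.000777. In size, regardless of direction, this fold change stood at the 99.5 percentile of genes tested. With 126 to 716 counts per library, counting error accounted for a coefficient of variation of 5.04% against 39.7% observed.

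Of the other peripheral capillary markers 3 were tested, and none passed. *Plvap*, the fenestral diaphragm protein, was at 63.3 ± 13.5 CPM in *APOE3* and 69.2 ± 18.9 CPM in *APOE4* cultures (SD, n = 8), a log2 fold change of 0.13 (edgeR adjusted p = 0.592). *Aplnr*, the apelin receptor, was at 5.26 ± 1.78 and 4.61 ± 1.21 CPM with an adjusted p of 0.547. *Fabp4* was at 1.18 ± 0.747 and 1.53 ± 0.432 CPM, a log2 fold change of 0.36 (edgeR adjusted p = 0.478). *Cd36*, the fatty acid translocase, had at most 2 counts in any library and was not tested, nor was *Rbp7*. The list without *Gpihbp1* summed to 56.3 to 97.2 CPM in *APOE3* and to 57.4 to 115 CPM in *APOE4* cultures.

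*Lrp4* differed by less. It ran from 16.5 to 22.4 CPM with a median of 19.8 in *APOE3* cultures and from 13.8 to 18.4 CPM with a median of 16.7 in *APOE4* cultures. All 8 *APOE4* cultures were below the *APOE3* median, 3 were below the lowest *APOE3* culture, and 5 of 8 *APOE3* cultures were above the highest *APOE4* culture, so the groups overlapped in a narrow band. The mean fell from 19.5 ± 2.24 to 16.3 ± 1.64 CPM (SD, n = 8), a log2 fold change of -0.25 with a standard error of 0.0762 and a 95% interval of -0.42 to -0.090 (edgeR adjusted p = 0.0345, exact permutation p = 0.00777). This call is the less firm of the pair: the adjusted p rose to as much as 0.0782 when 1 library was left out, and the call was lost without any of *APOE3* cultures 26, 28, 30 or 33 or *APOE4* cultures 35 or 37.

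**Figure D2:**
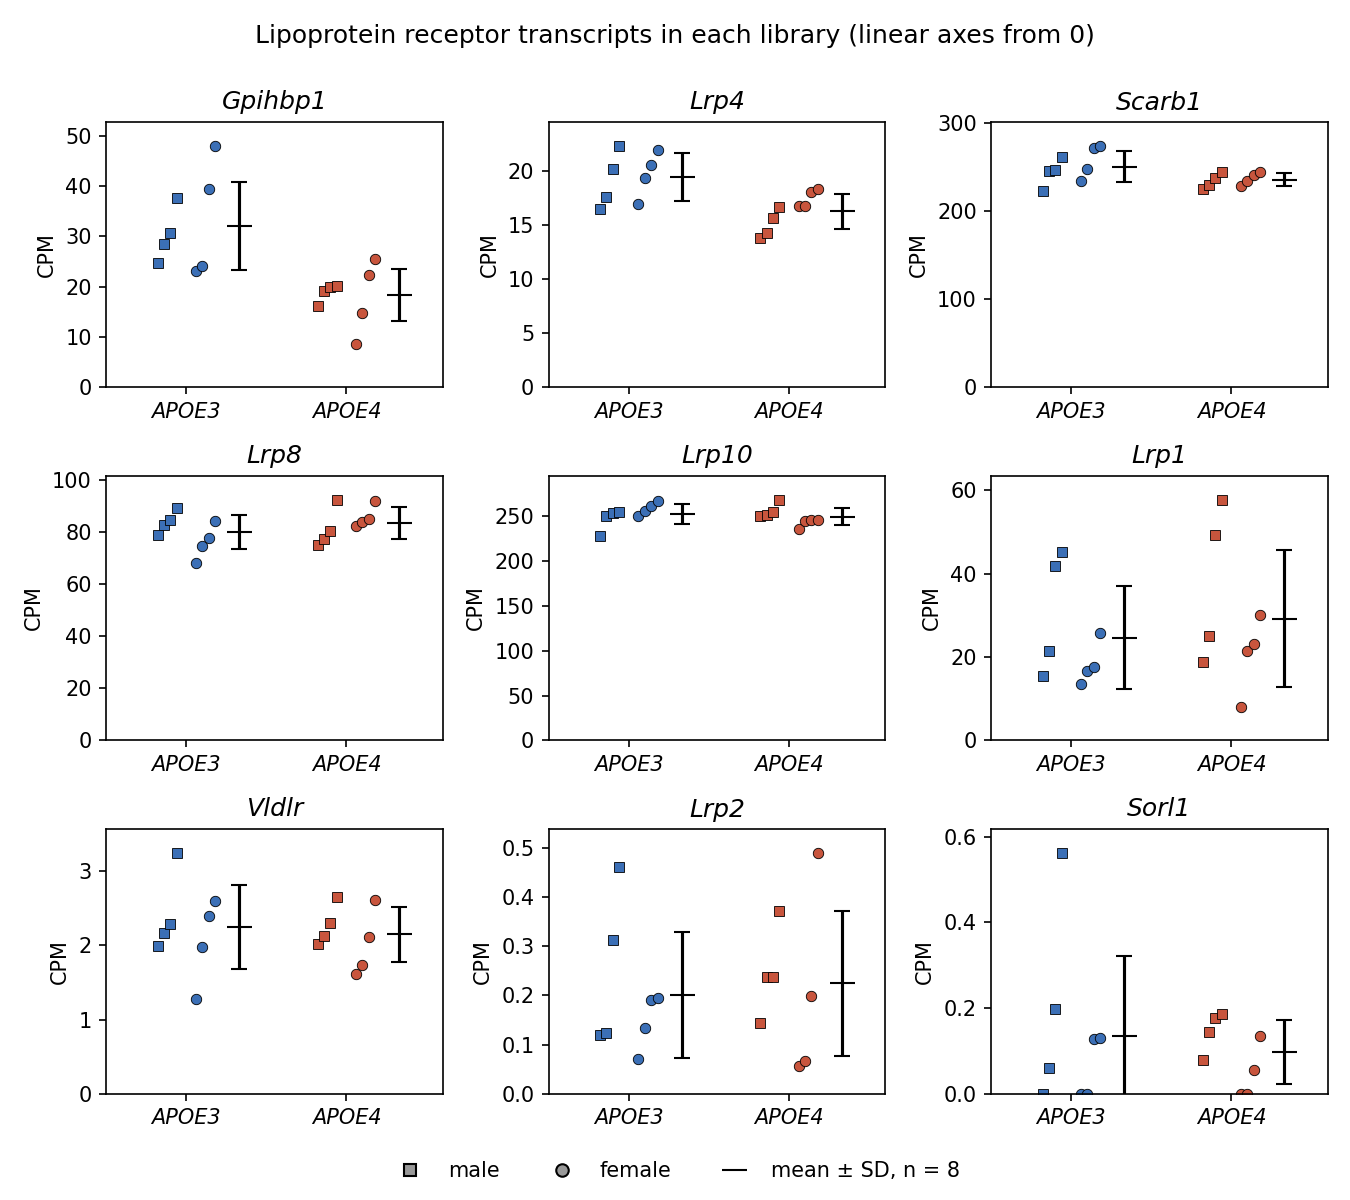
CPM of each of the 9 receptors in the 16 libraries (linear axes from 0), squares for males and circles for females, with the mean ± SD of 8 libraries beside each group. The *Gpihbp1* and *Lrp4* points of the *APOE4* cultures lie low, those of *Lrp8* and *Lrp10* lie level, those of *Lrp1* spread widely in both genotypes, and the SD bar of *Sorl1* in *APOE3* cultures is cut at 0.

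Genes of the cell cycle moved with genotype in the same cultures. Of 26 cell cycle genes 24 were called higher in *APOE4* cultures, their median log2 fold change was 0.63, and the list summed to 1244 to 2454 CPM in *APOE3* and 2028 to 3467 CPM in *APOE4* cultures, led by *Mki67* (333 CPM) and *Top2a* (201 CPM). *Gpihbp1* was low where the mean log2 CPM of this list was high (Pearson r = -0.79, Spearman rho = -0.87 over 16 libraries, permutation p = 0.00024 and 4e-05, adjusted over 28 relations 0.00336 and 0.00056). Without the 2 cultures farthest from the median of the score r was -0.73. It was -0.82 within *APOE3*, -0.37 within *APOE4*, -0.80 within males and -0.81 within females. The permutations of this and the other correlations ignored genotype, so their p values take in any difference between the genotypes. The r values within a genotype or a sex were not tested.

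With the cell cycle score added to the model as a covariate, the edgeR test called no gene of the table (912 at an unadjusted p under 0.05), and the log2 fold change was -0.29 for *Gpihbp1* (edgeR adjusted p = 0.758) and -0.13 for *Lrp4* (adjusted p = 0.806). The score differs between the genotypes, so in that model genotype and score cannot be told apart. *Lrp4* followed the score less closely, at r = -0.69 and rho = -0.59 (permutation p = 0.00341 and 0.0175, adjusted 0.0215 and 0.0981). Its r was -0.48 without the 2 farthest cultures, -0.50 within *APOE3* and -0.31 within *APOE4*.

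Other relations of the same family of 28 passed by 1 measure of correlation or by both. *Gpihbp1* was higher where the mean log2 CPM of the brain endothelial list was higher (r = 0.67, rho = 0.71, permutation p = 0.00424 and 0.00295, adjusted 0.0215 and 0.0275), with r = 0.61 without the 2 farthest cultures, 0.76 within *APOE3* and 0.31 within *APOE4*. Against pericyte and smooth muscle markers its r was -0.60 (permutation p = 0.014, adjusted 0.0491) but rho was -0.37 (p = 0.159, adjusted 0.238), and r was -0.12 without the 2 farthest cultures, on which that relation rests. *Scarb1* followed the cell cycle score downwards (r = -0.71, rho = -0.61, permutation p = 0.00194 and 0.0144, adjusted 0.0181 and 0.0981), with r = -0.61 within each genotype. *Lrp8* ran the other way, with r = 0.67 and rho = 0.51 (permutation p = 0.0046 and 0.0477, adjusted 0.0215 and 0.183), and its r was 0.93 within females and 0.21 within males, a difference that was not tested. *Scarb1* was also higher with the brain endothelial list (r = 0.65, rho = 0.58, permutation p = 0.00625 and 0.0214, adjusted 0.025 and 0.0999).

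Some marker sums of other cell types were also higher in *APOE4* cultures. The choroid plexus and ependymal sum had a median of 111 CPM in *APOE3* and 125 CPM in *APOE4* cultures (exact permutation p = 0.00357), the astrocyte sum 34.6 and 40.6 CPM (p = 0.0466) and the neuronal sum 11.7 and 13.8 CPM (p = 0.0275), each p being unadjusted. Of their tested markers only *Clic6* was called, from 108 ± 4.44 to 127 ± 16.9 CPM (SD, n = 8; log2 fold change 0.23, edgeR adjusted p = 0.0207). *Clic6* made up nearly all of the choroid plexus and ependymal sum. Only 2 of the 6 markers of that list were high enough to test, and 1 had a positive and 1 a negative log2 fold change. In the astrocyte and the neuronal list 2 of 7 markers each were high enough to test, with positive log2 fold changes. The part of these transcripts in the *Gpihbp1* and *Lrp4* differences was not tested. The sums of pericyte and smooth muscle, fibroblast, endothelial and macrophage markers had exact permutation p values of 0.427, 0.662, 0.733 and 0.245. A sum follows its most abundant markers. Of 9 tested pericyte and smooth muscle markers 8 had positive log2 fold changes (median 0.25), as had 3 of 4 fibroblast markers (median 0.30). None of these pericyte or fibroblast markers was called. Of the endothelial markers 5 were positive and 10 negative (median -0.037), and the 2 tested macrophage markers were negative (median -0.16).

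The genes nearest to *Gpihbp1* over the 16 libraries, by Pearson r of log2 CPM, were *Mmp15*, a membrane-type metalloproteinase (r = 0.93, rho = 0.89), *Adamtsl1* (r = 0.92, rho = 0.88) and *Igfbp5*, an insulin-like growth factor binding protein (r = 0.92, rho = 0.89). All 3 were called lower in *APOE4* cultures, *Igfbp5* by the most, from 15.9 to 7.79 CPM with a log2 fold change of -1.03 (edgeR adjusted p = 0.00685). After removal of each genotype's mean the r values were still 0.83 to 0.89. Nearest to *Lrp4* were *Rnf144a* (r = 0.88, rho = 0.87), *Dock6* (r = 0.86, rho = 0.79) and *Mtss1* (r = 0.85, rho = 0.74), which were also called lower, with log2 fold changes of -0.22, -0.27 and -0.23 (edgeR adjusted p = 0.026, 0.011 and 0.00824). After removal of each genotype's mean the r values with *Lrp4* were 0.73 to 0.78. The genes near both receptors were picked by r over both genotypes. That they were called in the same direction comes in part from that choice. These genes are given as the likest patterns among 12481 genes, and the relations carry no test.

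*Scarb1*, *Lrp8* and *Lrp10* were measured tightly and did not pass. *Scarb1* ran from 223 to 274 CPM with a median of 247 in *APOE3* cultures and from 225 to 245 CPM with a median of 236 in *APOE4* cultures. All 8 *APOE4* cultures were below the *APOE3* median, while the lowest culture of all was *APOE3* 25. The means were 251 ± 17.8 and 236 ± 7.47 CPM (SD, n = 8), a log2 fold change of -0.089 with a standard error of 0.0399 (edgeR p = 0.0376 before and 0.144 after adjustment, exact permutation p = 0.0507). The 95% interval, which is not adjusted for the number of genes tested, was -0.17 to -0.0032.

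*Lrp8*, also called the apoE receptor 2, ran from 68.1 to 89.2 CPM with a median of 80.9 in *APOE3* cultures and from 75.0 to 92.5 CPM with a median of 83.0 in *APOE4* cultures, with the groups nearly superimposed. Its log2 fold change was 0.061 with a 95% interval of -0.052 to 0.17 (edgeR adjusted p = 0.476). *Lrp10* was the steadiest receptor, at 252.5 ± 11.6 and 249.7 ± 9.46 CPM (SD, n = 8), a log2 fold change of -0.016 with a 95% interval of -0.089 to 0.056 (edgeR adjusted p = 0.798). Its coefficient of variation over all libraries was 4.10%, at the 4.59 percentile of genes tested.

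*Vldlr* was near the lower limit of what was tested, with 19 to 52 counts per library. It stood at 2.24 ± 0.565 CPM in *APOE3* and 2.15 ± 0.371 CPM in *APOE4* cultures (SD, n = 8), with a log2 fold change of -0.061 and a 95% interval of -0.42 to 0.30 (edgeR adjusted p = 0.853). Counting error alone gave a coefficient of variation of 17.1%, against 21.1% observed. A difference of the size seen for *Lrp4* was therefore not detectable for *Vldlr* at this depth.

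**Figure D3:**
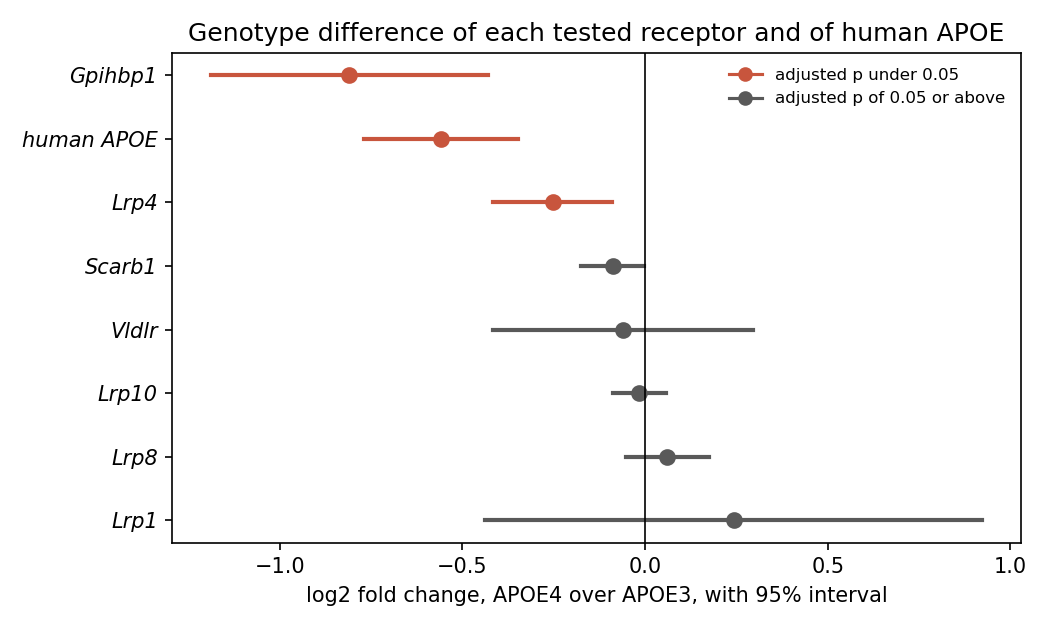
Log2 fold change of the 7 tested receptors and of human *APOE*, *APOE4* over *APOE3*, with 95% intervals; red marks an adjusted p under 0.05. *Gpihbp1*, human *APOE* and *Lrp4* lie below 0 with their whole interval, that of *Scarb1* ends just below 0, the *Lrp10* and *Lrp8* intervals are short and span 0, and that of *Lrp1* is the widest.

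*Lrp1*, the clearance receptor, varied more than any other tested receptor, and no genotype difference was called. It ran from 13.5 to 45.2 CPM with a median of 19.6 in *APOE3* cultures and from 8.09 to 57.8 CPM with a median of 24.0 in *APOE4* cultures. The high cultures were *APOE3* 25 and 26, at 45.2 and 41.8 CPM, and *APOE4* 37 and 38, at 57.8 and 49.2 CPM, all of them male, and the lowest was *APOE4* 39, a female culture. The coefficient of variation was 52.7%, at the 99.0 percentile of tested genes, while counting error gave 4.87%. The means were 24.7 ± 12.3 and 29.2 ± 16.4 CPM (SD, n = 8), a log2 fold change of 0.24 with a standard error of 0.317 and a 95% interval of -0.44 to 0.92 (edgeR adjusted p = 0.657). That interval is wide enough to hold a fall of the size seen for *Lrp4* and a rise of up to 0.92.

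Fibroblast and meningeal markers were high in the same 4 cultures. Their sum was 85.5 CPM in *APOE4* 37, 65.8 in *APOE3* 25, 52.8 in *APOE4* 38 and 51.9 in *APOE3* 26, and at most 43.4 CPM in the other 12. *Lrp1* followed the mean log2 CPM of the 4 tested markers of this list (r = 0.91, rho = 0.94 over 16 libraries, permutation p = 1e-05 for both, the smallest that 100000 permutations can give, adjusted over 28 relations 0.00028). Without the 2 farthest cultures r was 0.87, and it was 0.98 within *APOE3*, 0.89 within *APOE4*, 0.95 within males and 0.86 within females.

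Only 4 of the 9 fibroblast markers, *Col1a1*, *Col1a2*, *Col3a1* and *Pdgfra*, were high enough to test, none was called between genotypes, and *Dcn*, *Lum*, *Slc6a13*, *Ptgds* and *Aldh1a2* were each at most 0.544 CPM in every library. The 3 genes nearest to *Lrp1* were *Col1a2* (r = 0.98, rho = 0.96), *Axl*, a receptor tyrosine kinase (r = 0.98, rho = 0.96), and *Col5a1* (r = 0.97, rho = 0.95); *Lrp1* was not called, and these were named for it after its values were seen. With the fibroblast score as a covariate the *Lrp1* log2 fold change was -0.12 (edgeR adjusted p = 0.605). Without the 4 cultures it was 0.19 (adjusted p = 0.645), the *Gpihbp1* value was -0.87 (adjusted p = 0.0463) and the *Lrp4* value -0.23 (adjusted p = 0.103). Whether the marker transcripts and *Lrp1* came from the same cells was not tested.

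**Figure D4:**
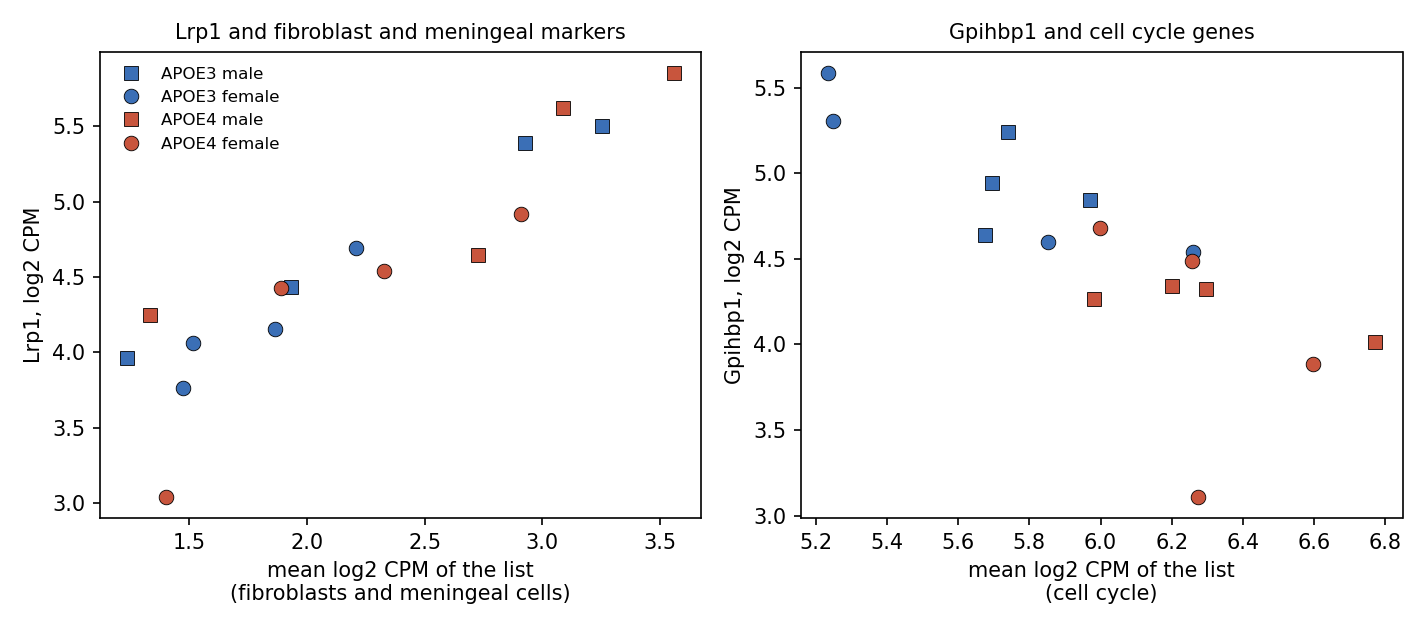
Left, *Lrp1* (log2 CPM) against the mean log2 CPM of the fibroblast and meningeal list; right, *Gpihbp1* (log2 CPM) against the mean log2 CPM of the cell cycle list, 1 point per library, by genotype (blue *APOE3*, red *APOE4*) and sex (squares male, circles female). *Lrp1* climbs with the first score in both genotypes, and *Gpihbp1* is lower at higher values of the second, where most *APOE4* cultures lie.

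*Lrp2* and *Sorl1* were at the edge of detection. *Lrp2*, the endocytic receptor megalin of absorptive epithelia, had 1 to 9 counts per library, at or under 3 counts in 11 of 16, and 25 counts in all in *APOE3* and 29 in *APOE4* cultures. *Sorl1* had 0 to 9 counts, at or under 3 in 15 of 16 and none in 5, with 17 counts in *APOE3*, 9 of them in culture 25, and 12 in *APOE4* cultures. Exact permutation tests on CPM gave p = 0.727 for *Lrp2* and 0.732 for *Sorl1*. At these counts a genotype difference was not detectable, and no fold is given.

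Sex was the only other label that split each genotype into groups. Replicate numbers were all lower in *APOE3* than in *APOE4* cultures, so anything that followed their order cannot be told apart from genotype. Between females and males 0.0721% of genes tested were called and no receptor. The *Lrp1* values leaned lower in females, with a female minus male log2 fold change of -0.82, a standard error of 0.277 and an unadjusted p of 0.00829 in the edgeR quasi-likelihood test (adjusted p = 1.00). Its male and female means were 31.0 ± 14.8 and 18.4 ± 5.25 CPM in *APOE3* and 37.7 ± 18.7 and 20.7 ± 9.20 CPM in *APOE4* cultures (SD, n = 4). The 4 cultures with over 50 CPM of fibroblast and meningeal markers were all male. The part of these markers in the *Lrp1* difference between the sexes was not tested. The genotype effect did not pass as different between the sexes for any receptor (0% of genes tested called, with 345 genes at an unadjusted p under 0.05). *Lrp8* and *Lrp10* came nearest. The *APOE4* effect on *Lrp8* was 0.22 higher in females than in males (edgeR adjusted p = 1.00, unadjusted 0.0368), and that on *Lrp10* was 0.14 lower in females (adjusted p = 1.00, unadjusted 0.0316).

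*Gpihbp1* and *Lrp4* were lower in *APOE4* cultures of both sexes, though with 4 against 4 neither passed. The *Gpihbp1* log2 fold change was -0.69 in males (edgeR adjusted p = 0.255) and -0.92 in females (adjusted p = 0.0861), and the *Lrp4* values were -0.34 (adjusted p = 0.217) and -0.17 (adjusted p = 0.348). No gene was called within males or within females, where 1775 and 2428 genes had an unadjusted p under 0.05.

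Most pairs of receptors did not pass a test of correlation. Of 21 pairs of the 7 tested receptors only *Lrp4* and *Scarb1* passed (r = 0.75, rho = 0.78 over 16 libraries, permutation p = 0.00094 and 0.00083, adjusted 0.0197 and 0.0174). That relation was 0.61 without the 2 farthest cultures, 0.87 within *APOE3* and 0.18 within *APOE4*, and the difference between the genotypes was not tested. Other pairs came near the threshold. They were *Lrp10* with *Scarb1* (r = 0.62), *Lrp8* with *Lrp10* (r = -0.60) and *Vldlr* with *Scarb1* (r = -0.59), each with an adjusted permutation p of 0.079 for r. In the same order r was 0.88, -0.78 and -0.84 within *APOE3*, and 0.082, -0.33 and -0.39 within *APOE4*. *Gpihbp1* and *Lrp4*, both lower in *APOE4* cultures, had r = 0.21 within *APOE3* and 0.036 within *APOE4*.

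Of 18 genes listed here as ligands of these receptors 13 were tested, and the median of their log2 fold changes was 0.035. Binding of their products to the receptors was not measured. The test called 4 of the 13 genes higher and 1 lower. Human *APOE* itself fell from 1172 ± 174 to 796 ± 134 CPM (SD, n = 8), a log2 fold change of -0.56 with a standard error of 0.0986 (edgeR adjusted p = 0.00542), and 7 of 8 *APOE4* cultures lay below the lowest *APOE3* culture. The row of the mouse *Apoe* gene held 15.6 ± 1.37 and 12.7 ± 1.94 CPM and was called lower (log2 fold change -0.30, adjusted p = 0.0297), but reads of the 2 orthologs may be shared and this row is uncertain. *Clu*, the apolipoprotein J chaperone, rose from 6.75 ± 1.78 to 10.9 ± 2.21 CPM (log2 fold change 0.69, edgeR adjusted p = 0.00959). *Thbs1*, thrombospondin 1, rose from 1158 ± 323 to 1819 ± 478 CPM (0.65, adjusted p = 0.0195), *Apod*, a lipocalin, from 353 ± 52.5 to 485 ± 109 CPM (0.46, adjusted p = 0.0191), and *Hspg2*, the basement membrane proteoglycan perlecan and the most abundant gene of the list, from 5042 ± 345 to 5574 ± 316 CPM (0.14, adjusted p = 0.0301, but 0.0545 without the filter on low counts).

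The partners of the receptors inside the cell moved little. Of 13 adaptors, chaperones and degraders 11 were tested and 2 were called, both lower. *Dab2*, an endocytic adaptor and the most abundant of them, fell from 360 ± 21.6 to 326 ± 13.2 CPM (log2 fold change -0.14, edgeR adjusted p = 0.0201) with no overlap between the genotypes, and *Numb* from 99.4 ± 3.38 to 92.1 ± 4.03 CPM (-0.11, adjusted p = 0.0303, but 0.0556 without the filter). The median of the list was 0.0068. *Dab1*, the adaptor that carries the reelin signal from VLDLR and LRP8, had at most 1 count in any library. Of 9 genes of reelin signaling 8 were tested and none was called, with a median of -0.017 and *Rapgef1* the most abundant.

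Sorting and shedding genes were close to level. In the retromer and sortilin list 15 of 17 genes were tested and only *Vps35*, the retromer scaffold, was called, rising from 84.6 ± 4.42 to 92.5 ± 3.35 CPM (log2 fold change 0.13, edgeR adjusted p = 0.0214), with a list median of 0.024 and *Sort1*, a relative of *Sorl1*, the most abundant at 214 CPM. All 10 sheddases and secretases were tested and *Adam17*, which cleaves receptor ectodomains, was called, from 93.4 ± 5.96 to 104 ± 4.09 CPM (0.16, adjusted p = 0.0143), with a median of -0.028. *Adam10*, the most abundant, was at 232 ± 11.7 and 244 ± 8.69 CPM with an adjusted p of 0.178.

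In the lipoprotein lipase pathway of GPIHBP1 9 of 16 genes were tested, 1 was called lower and the median was -0.0094. *Pltp*, the phospholipid transfer protein and the most abundant, fell from 385 ± 44.8 to 316 ± 37.7 CPM (log2 fold change -0.29, edgeR adjusted p = 0.0188). *Lpl*, the lipase that GPIHBP1 carries, was at 7.43 ± 1.72 and 7.32 ± 2.81 CPM (-0.019, adjusted p = 0.960). *Angptl4*, its inhibitor, was at 120.4 ± 15.8 and 122 ± 12.8 CPM with an adjusted p of 0.914.

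Of 11 heparan sulfate proteoglycan genes 10 were tested and 2 were called higher, with a median of 0.090, *Hspg2* and *Ext1*, a chain polymerase of heparan sulfate, which rose from 57.4 ± 2.93 to 65.0 ± 3.12 CPM (log2 fold change 0.18, edgeR adjusted p = 0.00824). *Hspg2* also stands among the ligands. Scavenger receptors had 7 of 13 genes tested with a median of -0.024. *Cxcl16*, a chemokine that also binds oxidised lipoprotein, rose from 37.8 ± 6.23 to 51.4 ± 9.07 CPM (0.44, adjusted p = 0.0123), and *Stab1*, the most abundant at 1690 CPM, was at 1703 ± 145 and 1677 ± 94.2 CPM with an adjusted p of 0.806. None of the 5 tested genes among 6 other LRP receptors was called, although all 5 had negative values (median -0.065). *Lrp5*, the Wnt coreceptor and the most abundant, was at 386 ± 12.9 and 369 ± 16.8 CPM (-0.065, adjusted p = 0.198), and the value farthest from 0 was that of *Lrp3*, at 38.3 ± 8.01 and 30.0 ± 6.53 CPM (-0.35, adjusted p = 0.0892). Each of these counts stands against the 12.8% of all genes tested that were called.

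**Figure D5:**
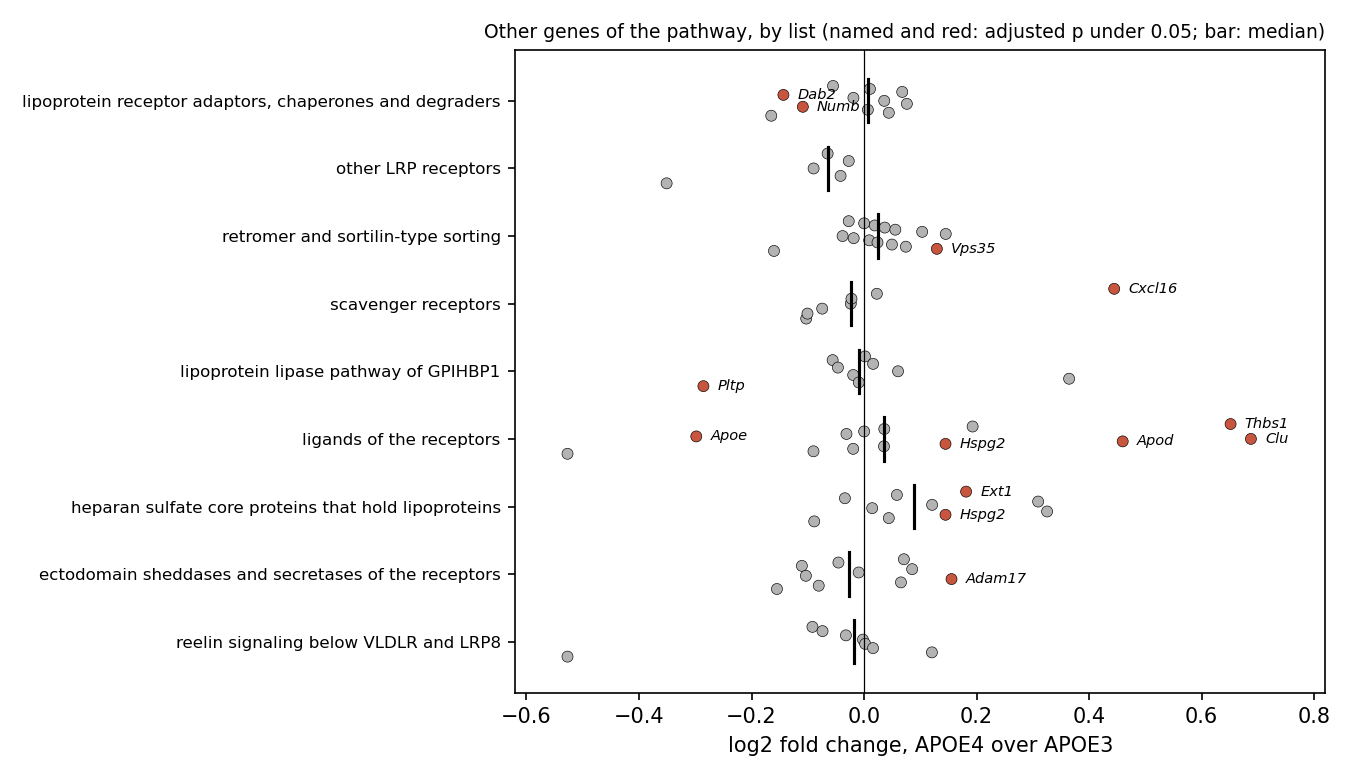
Log2 fold change (*APOE4* over *APOE3*) of the tested genes of 9 pathway lists, 1 point per gene, with a bar at each list's median; red points, named, had an adjusted p under 0.05. The medians lie between -0.065 and 0.090, and the called genes farthest from 0 are the ligands *Clu* and *Thbs1*.

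The receptors lie at separate places in the mouse genome (GRCm38, GENCODE vM21, the reference given for this work and of the same build as the mm10 of the submitters' notes). *Gpihbp1* (ENSMUSG00000022579.10) is on chr15:75596628-75599481 and *Lrp4* (ENSMUSG00000027253.15) on chr2:91457511-91513779, both on the forward strand, with no other annotated gene overlapping either. *Vldlr* is on chr19:27216484-27254231, also free of overlaps. *Lrp1*, *Lrp8*, *Lrp10* and *Sorl1* each overlap an annotated antisense gene, with 475 shared exonic bases for *Lrp10* and 185 for *Sorl1* and none for *Lrp1* and *Lrp8*. These antisense genes have no row of their own in the table used here, and the strand setting of the counting is not given in the sources used here. In the shared exonic bases of *Lrp10* and *Sorl1*, reads of the antisense gene therefore cannot be told apart from the receptor's own.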

How the data were processed

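Gene counts from poly-A RNA of 16 brain endothelial cultures (100 ng RNA, 17 PCR cycles, paired reads of 50 nt) were deposited as 1 table of raw counts by the authors. The submitters' processing notes name STAR and featureCounts with the builds mm10 and hg38. Versions, annotation release and strand setting are not given in the sources used here. Human *APOE* had its own row. Symbols and exonic lengths came from GENCODE vM21, which held 38872 of 39056 mouse identifiers.

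Genes were filtered with filterByExpr by genotype, scaled by TMM and tested by edgeR 4.0.16 (R 4.3.3) with a quasi-likelihood F test on genotype alone over all 16 libraries, with Benjamini-Hochberg adjustment over 12481 genes and a threshold of 0.05. A gene is called higher or lower where it passes. Standard errors are the log2 fold change divided by the square root of F, and 95% intervals use 14 degrees of freedom. CPM are counts per 1000000 counts of the TMM-scaled library, and log2 CPM used a prior count of 2. Sex and its interaction with genotype were tested in 1 fit of 4 groups. The score of a marker list is the mean log2 CPM of those of its genes that were tested. Correlations used 100000 permutations of all 16 libraries, regardless of genotype. On simulated counts, 194 of 200 genes changed by 1 log2 unit between genotypes were recovered and 10 others were called, among 12398 genes. The simulation held no smaller change and no variation shared between genes. It therefore does not show how often a change of the size of *Lrp4* would be recovered.

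Named were the 9 receptors, human *APOE*, every called gene and the most abundant gene of each pathway list, the 3 genes likest in pattern to each called receptor, and the 2 highest markers and those at 0 of each marker list. The sum and highest markers of 1 marker list are not reported here. Other genes named were chosen after their values were seen. The receptors and lists were chosen with earlier results of these data known. Alternatives were DESeq2 1.42.0, limma 3.58.1 voom with quality weights, other filters and scaling, covariates, single sexes and each library left out. Figures used matplotlib 3.10.9.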

Additional observations from a re-analysis of the deposited data

Results flagged for a closer look

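Each receptor and human *APOE* were checked in both genotypes for a culture standing apart from the other 7, by the gap to its neighbour over the group's range, against Dixon’s 95% critical value. In 20 such groups 2 cultures stood apart, where chance gives about 1 in 20, and both are the same library, *APOE3* 25. Its *Lrp10* value, 228 CPM, was the lowest of the *APOE3* cultures, the next being 249.8 CPM and the highest 267 CPM. Its *Sorl1* value, 0.562 CPM from 9 counts, was the highest, the next being 0.197 CPM. The same culture also had the highest *Lrp1*, *Vldlr* and *Lrp8* and the lowest *Scarb1* and *Lrp4* values of its genotype and the second highest sum of fibroblast and meningeal markers of all 16, 65.8 CPM. Without it the *Lrp10* log2 fold change was -0.037 and that of *Vldlr* was 0.035, with the sign turned, and neither was called.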

How the results depend on the processing

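Of the alternatives with all 16 libraries and no added covariate (DESeq2 size factors, no filter, at least 10 counts in every library, DESeq2 Wald test, limma voom with quality weights), none changed the direction or the call of a receptor or of human *APOE*, nor did sex as a covariate. With a covariate for the cell cycle score 0 genes and 0 receptors were called, and log2 fold changes were -0.29 for *Gpihbp1*, -0.13 for *Lrp4*, -0.23 for human *APOE* (adjusted p = 0.609), -0.090 for *Lrp8*, 0.016 for *Lrp10* and 0.00081 for *Scarb1*, the last 3 with the sign turned. With the pericyte and smooth muscle score 350 genes and 1 receptor were called, *Lrp4* was -0.21 (adjusted p = 0.155), *Lrp1* -0.048 and *Lrp10* 0.0046, the last 2 turned. With the fibroblast score 1 receptor was called, *Lrp4* was -0.24 (adjusted p = 0.0582) and *Lrp1* turned to -0.12. In males 0 genes and 0 receptors were called, with *Gpihbp1* at -0.69, *Lrp4* at -0.34, human *APOE* at -0.44 (adjusted p = 0.217), and *Lrp8* and *Lrp10* turned to -0.048 and 0.055. In females 0 genes and 0 receptors were called, with *Gpihbp1* at -0.92, *Lrp4* at -0.17 and human *APOE* at -0.68 (adjusted p = 0.0608). Without the 4 cultures over 50 CPM of fibroblast markers, an alternative chosen after seeing the data, 372 genes and 1 receptor were called and *Lrp4* was -0.23. The last fit has 12 libraries, and each sex alone compares 4 with 4 in a fit of all 16. The cause of these changes was not tested. Most of the alternatives for human *APOE* were likewise added after seeing the data. Without the filter 1 gene was called in the adaptor list, 1 in the heparan sulfate list and 4 in the ligand list, as *Numb* (adjusted p = 0.0556) and *Hspg2* (adjusted p = 0.0545) lost their calls. Leaving out each library in turn, 846 to 2127 genes and 1 to 2 receptors were called. The count was 853 without *APOE3* culture 30, 952 without 33 and 846 without *APOE4* culture 41. The log2 fold change ran from -0.89 to -0.70 for *Gpihbp1* and from -0.62 to -0.51 for human *APOE*, both called in 16 of 16 fits, from -0.29 to -0.22 for *Lrp4* (called in 10 of 16), from -0.15 to 0.035 for *Vldlr*, from 0.021 to 0.43 for *Lrp1*, from 0.031 to 0.084 for *Lrp8*, from -0.037 to -0.0047 for *Lrp10* and from -0.11 to -0.070 for *Scarb1*. Depth limits *Vldlr*, *Lrp2* and *Sorl1*. No paired analysis was possible because the genotypes share no replicate numbers.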
